A study of Mus musculus with 10 samples.

Results

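The 10 genes described here make the MHC class I antigen presentation route: the heavy chain genes H2-K1 and H2-D1, the light chain gene B2m, the peptide transporter genes Tap1 and Tap2, the loading factor gene Tapbp, the immunoproteasome subunit genes Psmb8, Psmb9 and Psmb10, and the transcriptional coactivator gene Nlrc5. They were chosen by gene symbol, each symbol matched 1 row, and they are 10 of 55487 annotated genes in the table. All 10 passed the filter on low values (at least 1 TPM in at least 5 libraries), as did 13930 genes in all. TPM is transcript abundance corrected for gene length and given per library of constant total, so levels can be compared between genes.

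The study concerned Ser452 of Ptpn22, the gene of the tyrosine phosphatase Pep. WT mice and mice carrying the S452A form of Pep (serine replaced by alanine, an allele present in the whole animal as far as the labels say) received MC38, mouse colon carcinoma cells, by injection when 8 weeks old. After 18 days the tumours were digested with collagenase, CD8+ T cells were sorted from the suspension, and bulk RNA was sequenced from 5 mice of each genotype. The sources used here do not give the strain of the mice or whether S452A was homozygous. No batch is named in the labels.

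MHC class I molecules show peptides from inside the cell to CD8+ T cells. Proteasomes cut proteins into peptides, and under interferon 3 catalytic subunits of the core particle (Psmb5, Psmb6 and Psmb7) are replaced by inducible ones (Psmb8, Psmb9 and Psmb10), giving the immunoproteasome. The transporter formed by Tap1 and Tap2 carries peptides into the endoplasmic reticulum, where tapasin (Tapbp) and chaperones load them onto a heavy chain paired with beta-2 microglobulin (B2m). Interferon gamma induces most of these genes, in part through Irf1, and Nlrc5 joins a complex of RFX, CREB/ATF and NF-Y factors on class I promoters. Nearly all nucleated cells make class I, both T cells and macrophages included.

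The label of the sort was checked against marker genes. The 12 CD8 T cell markers summed to 20.6 to 155 TPM in the WT libraries and 21.99 to 181 TPM in the S452A libraries, with none of them at 0 throughout. The 12 macrophage and monocyte markers summed to 18038 to 25024 TPM and 18852 to 24446 TPM, and 11 of them averaged at least 100 TPM. Cd8a itself was low in every library, at 6.20 ± 5.49 TPM (SD, n = 5) in WT against 6.50 ± 5.46 TPM in S452A. Transcripts of macrophages thus outweighed those of T cells in all 10 libraries, against the label, and no statement below is about CD8+ T cells alone. In bulk samples, fewer cells of a type and less RNA per cell cannot be told apart.

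Class I transcripts were abundant in both genotypes and none of the 10 genes passed the test between them. The genes together took 0.900% to 1.36% of all TPM in a library. B2m was highest, at a mean of 4654 ± 549 TPM (SD, n = 10), followed by H2-K1 at 3863 ± 677 TPM and H2-D1 at 2083 ± 293 TPM. Psmb8 (303 ± 39.9 TPM), Psmb10 (236 ± 33.2 TPM), Tapbp (178 ± 24.5 TPM), Psmb9 (127 ± 19.0 TPM) and Tap1 (105 ± 19.5 TPM) formed a middle range. Tap2 (37.6 ± 4.96 TPM) and Nlrc5 (25.6 ± 5.80 TPM) were lowest. Each gene exceeded the next in this order in 10 of 10 libraries, apart from Psmb10 over Tapbp and Tapbp over Psmb9, which held in 9 of 10. Across libraries, the ranges of B2m and H2-K1 overlapped, although B2m was the higher in each of them.

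**Figure D1:**
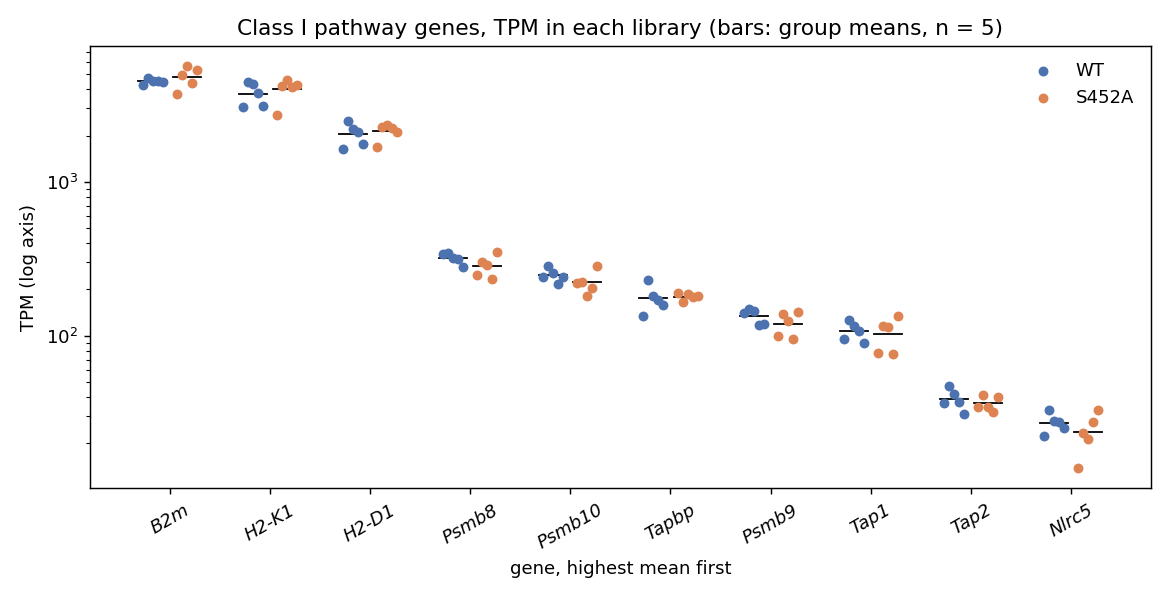
TPM of the 10 genes (log axis), with 1 point per library and a bar at the mean of each genotype (n = 5 WT, n = 5 S452A), ordered by the mean over all 10 libraries. Heavy and light chain genes lie above 1000 TPM, Nlrc5 lies lowest at a mean of 25.6 TPM, and the points of the genotypes overlap for every gene.

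Genotype differences were estimated by limma on log2(TPM + 1) over all 13930 genes, with Benjamini-Hochberg adjustment. In this fit 1 gene passed an adjusted p of 0.05 (0.00718% of genes tested), the predicted gene Gm36079, which is no class I gene. Of the 10 class I genes, 0 passed. An unadjusted p under 0.05 was reached by 0 of them and by 660 of 13930 genes, and adjusted p ranged from 0.952 to 0.974. The S452A minus WT difference was above 0 for 4 genes and below 0 for 6, with a median of -0.07 against -0.02 for all genes tested. Each 95% interval lay inside a change of 1 on the log2 scale, which is 2-fold. No class I gene had genotypes that did not overlap, against 0.646% of genes tested. The median coefficient of variation of the 10 genes over the 10 libraries was 14.1%, against 23.8% over all genes tested. Their mean TPM lay at percentiles 68.6 (Nlrc5) to 99.9 (B2m) of the genes tested, and variation was not compared at like abundance. All TPM values rest on an unknown sequencing depth, which TPM does not keep.

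**Figure D2:**
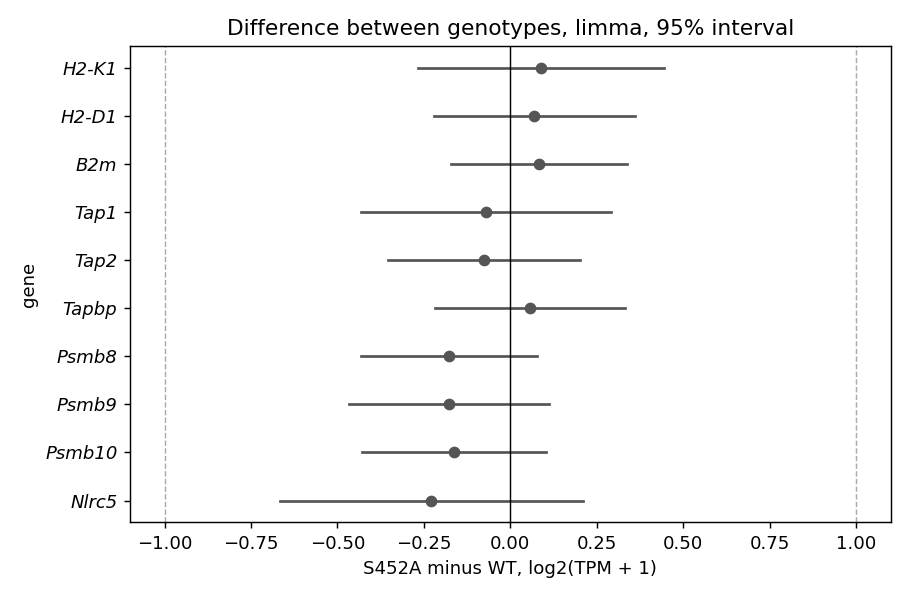
Difference S452A minus WT in log2(TPM + 1) for each gene (point) with its 95% interval from limma (line), n = 5 per genotype, with dashed lines at a change of 1 in either direction. Every interval includes 0 and stays inside the dashed lines, the widest being that of Nlrc5 (-0.67 to 0.21).

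H2-K1 and H2-D1 encode the polymorphic heavy chains that hold the peptide. H2-K1 was at 3043, 4479, 4316, 3756 and 3094 TPM in WT mice 1 to 5 and at 2710, 4214, 4617, 4117 and 4287 TPM in S452A mice 1 to 5. Mouse 1 of S452A was the lowest of all, WT mice 1 and 5 came next, and the other 7 libraries lay at 3756 TPM or above. The difference was 0.09 ± 0.16 (SE, log2 scale, interval -0.27 to 0.44). H2-D1 was at 1632, 2497, 2199, 2107 and 1758 TPM in the WT mice and at 1689, 2260, 2339, 2240 and 2110 TPM in S452A. The same 3 libraries, WT 1, WT 5 and S452A 1, were the low ones. Its difference was 0.07 ± 0.13 (SE, interval -0.22 to 0.36).

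H2-K1 exceeded H2-D1 in all 10 libraries, by a ratio of TPM of 1.60 to 2.03 (median 1.85). Their longest coding transcripts were 88.4% identical over 1515 aligned bases, and no transcript of another gene was at least 95% identical to that of any of the 10 genes over at least 0.8 of the shorter one. The split of shared reads between heavy chain genes is an estimate, so their sum was also compared. Summed over 14 heavy chain genes (H2-K1, H2-D1 and 12 of the H2-K, H2-Q and H2-T genes), WT libraries reached 7300 ± 1320 TPM and S452A libraries 7789 ± 1438 TPM (n = 5 each, SD). This sum differed on the log2 scale by 0.09 (2-sided exact permutation p = 0.690; the smallest p this design allows is 0.00794). H2-K1 and H2-D1 made up 74.7% to 81.4% of it in each library.

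B2m, the light chain shared by all classical class I molecules, was at 4251, 4762, 4502, 4531 and 4427 TPM in the WT mice and 3721, 4963, 5657, 4421 and 5306 TPM in S452A. The S452A libraries held both the lowest value (mouse 1) and the highest (mouse 3), and the WT libraries lay between them. Its difference was 0.08 ± 0.12 (SE, interval -0.17 to 0.34). Relative to the summed heavy chains, B2m was at a ratio of 0.541 to 0.734 (median 0.613), below 1 in all 10 libraries.

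The promoters of these 3 chain genes held a pair of sequence elements at 1 fixed distance, which the windows of 5 other genes of the 10 did not hold. RefSeq windows (GRCm38.p6, 250 bases before to 50 bases after a gene's start) matched 8 of the 10 genes, all except Tap2 and Nlrc5. The core of the X2 box, TGACG, which CREB/ATF factors bind, stood on the coding strand in front of H2-K1, H2-D1 and B2m. In all 3 it was followed, after exactly 20 other bases, by ATTGG, the reverse of the CCAAT box bound by NF-Y. The stretches are shown because they place both groups of letters at the same distance, with TGACG and ATTGG in capitals, 5′ to 3′ on the gene's strand.
H2-K1, chr17:34000359-34000388, minus strand: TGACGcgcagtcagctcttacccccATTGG
H2-D1, chr17:35262993-35263022, plus strand: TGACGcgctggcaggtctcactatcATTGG
B2m, chr2:122147609-122147638, plus strand: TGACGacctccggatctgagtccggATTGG

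Of the 30 bases, 23 were the same in H2-K1 and H2-D1, 13 in H2-K1 and B2m, and 12 in H2-D1 and B2m. The spacing was noticed in these sequences and then counted. Searched on both strands, this spaced pair was found in 31 of 32851 promoter windows (0.0944%), whereas TGACG alone was found in 20.8% and CCAAT alone in 37.4%. Among 11 other class I heavy chain genes with a window, it was found in 1, H2-M3. These counts required exactly this gap and leave out pairs of the same order and strand at a slightly different gap. In H2-Q7, TGACG began at -64 and ATTGG at -40 from the start, a slightly shorter gap. In the class II gene H2-Aa they began at -74 and -48, a slightly longer gap. How many windows hold the pair at such gaps was not counted. A match of letters describes the sequence and does not show that a factor binds there.

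Upstream of H2-K1 and B2m the window also held a core of the interferon response element (TTTCNNTT, in 23.9% of windows on either strand), and that of H2-K1 a core of the NF-kB site (GGGNNTTCC, in 5.82%). The 150 bases before the start (for H2-K1, the second of 2 listed starts) are shown for the most abundant heavy chain and the light chain, because they hold these elements side by side. The spaced pair and both cores are in capitals. In B2m the interferon response core is on the opposite strand.
H2-K1, chr17:34000334-34000483, minus strand: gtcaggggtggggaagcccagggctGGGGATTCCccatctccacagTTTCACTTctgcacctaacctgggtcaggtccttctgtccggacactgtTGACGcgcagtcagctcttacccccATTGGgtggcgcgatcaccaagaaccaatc
B2m, chr2:122147537-122147686, plus strand: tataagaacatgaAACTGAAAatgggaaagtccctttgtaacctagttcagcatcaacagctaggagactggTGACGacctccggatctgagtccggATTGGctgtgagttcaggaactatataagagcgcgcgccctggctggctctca

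The H2-D1 window held the same NF-kB and interferon response cores, at 171 and 150 bases before the start. The windows of Psmb8 and Psmb10 held none of the 4 motifs, and that of Tapbp held only CCAAT boxes. The windows of Psmb8 (34197945 to 34198244) and Tapbp (33919228 to 33919527) lie inside the GENCODE genes, which start at 34197721 and 33915899. The sequence before those GENCODE starts was not searched.

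Tap1 and Tap2 encode the chains of the peptide transporter, and both lie in the class II region of the MHC beside immunoproteasome genes. On chromosome 17 (GRCm38, GENCODE M21), Psmb9 (34181987 to 34187764, minus strand), Tap1 (34187553 to 34197225, plus), Psmb8 (34197721 to 34201454, plus) and Tap2 (34203527 to 34216321, plus) follow each other within 34335 bases. Tap1 and Psmb9 are divergent, their annotated genes overlap by 212 bases at their starts, and their RefSeq windows share a TGACG. It is shown, in capitals, in 30 bases read on the strand of Tap1.
Tap1 and Psmb9, chr17:34187458-34187487, plus strand: cccagagacaggTGACGacagagggtcctg

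Reads in the overlap of Tap1 and Psmb9, which lie on opposite strands, could be told apart by strand. Psmb8 and Tap2 also overlap the gene Gm20496, and Tap2 overlaps Gm15821. B2m, Tapbp, Psmb10 and Nlrc5 overlap other annotated genes as well. The libraries were directional per the labels, but the sources used here do not say whether the counting used strand.

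Tap1 was at 95.6, 126, 116, 107 and 90.0 TPM in the WT mice and at 77.5, 115, 114, 76.7 and 134 TPM in S452A. S452A mice 1 and 4 were the 2 lowest libraries and S452A mouse 5 the highest, so the S452A values spanned the WT values. Its difference was -0.07 ± 0.17 (SE, interval -0.43 to 0.29). Tap2 was at 36.6, 47.0, 42.1, 37.0 and 31.1 TPM in the WT mice and 34.4, 41.5, 34.7, 32.2 and 39.8 TPM in S452A. Here WT held both extremes, and the difference was -0.08 ± 0.13 (SE, interval -0.36 to 0.20). Tap1 exceeded Tap2 in all 10 libraries, at a ratio of TPM of 2.26 to 3.36 (median 2.77), although the transporter holds 1 of each.

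Tapbp, the gene of tapasin, was at 135, 231, 183, 170 and 160 TPM in the WT mice and at 188, 166, 186, 179 and 180 TPM in S452A. WT held the lowest (mouse 1) and the highest (mouse 2) library, while the S452A libraries lay close together (SD 8.82 TPM against 35.4 TPM in WT). The difference in spread was not tested. The difference in level was 0.06 ± 0.13 (SE, interval -0.22 to 0.33). The direction of the differences of H2-D1 and Tapbp (each without WT mouse 1) and of Tap1 (without S452A mouse 1 or 4) turned when 1 library was left out, and none passed then either.

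Psmb8, Psmb9 and Psmb10 encode the inducible catalytic subunits, and their 3 differences were the lowest of the 10 after that of Nlrc5. Psmb8 was at 342, 343, 320, 317 and 280 TPM in the WT mice and at 250, 300, 291, 234 and 352 TPM in S452A. Of the S452A libraries, mice 1 and 4 lay below all WT libraries and mouse 5 lay above them. The difference was -0.18 ± 0.12 (SE, interval -0.43 to 0.08, limma adjusted p = 0.952). Psmb9 was at 140, 150, 146, 118 and 120 TPM in the WT mice and 100, 138, 125, 95.2 and 142 TPM in S452A. Again S452A mice 1 and 4 were the low libraries and the genotypes overlapped, with a difference of -0.18 ± 0.13 (SE, interval -0.47 to 0.11). Psmb10, on chromosome 8 and so away from the MHC, was at 243, 284, 257, 217 and 241 TPM in the WT mice and 220, 224, 181, 205 and 285 TPM in S452A. S452A mouse 3 was lowest and S452A mouse 5 highest, with a difference of -0.16 ± 0.12 (SE, interval -0.43 to 0.10).

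The inducible subunits were then set against the constitutive ones they replace, within each library. Psmb8 exceeded Psmb5 in all 10 libraries, at a ratio of TPM of 2.11 to 3.63 (median 2.48). Psmb10 exceeded Psmb7 in all 10, at 1.34 to 2.09 (median 1.50). Psmb9 lay below Psmb6 in all 10, at 0.214 to 0.397 (median 0.331), since Psmb6 averaged 392 ± 22.5 TPM in WT against 417 ± 27.8 TPM in S452A (n = 5, SD). The pairs therefore differed in which partner was the more abundant transcript.

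None of the 3 ratios passed the test between genotypes. The log2 ratio of Psmb8 to Psmb5 was 1.41 ± 0.22 in WT against 1.40 ± 0.37 in S452A (2-sided exact permutation p = 0.976, n = 5, SD, adjusted over the 3 ratios 0.976). That of Psmb9 to Psmb6 was -1.54 ± 0.21 and -1.80 ± 0.32 (SD, n = 5, exact permutation p = 0.167, adjusted 0.500). That of Psmb10 to Psmb7 was 0.70 ± 0.20 and 0.59 ± 0.14 (SD, n = 5, exact permutation p = 0.421, adjusted 0.631). For Psmb8 to Psmb5, the S452A libraries fell into 3 at 1.07 to 1.20 (mice 1, 2 and 4) and 2 at 1.76 and 1.85 (mice 3 and 5). In mice 3 and 5 the constitutive Psmb5 was also at its lowest in S452A, at 85.0 and 97.2 TPM against 111 to 130 TPM in the other 3.

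**Figure D3:**
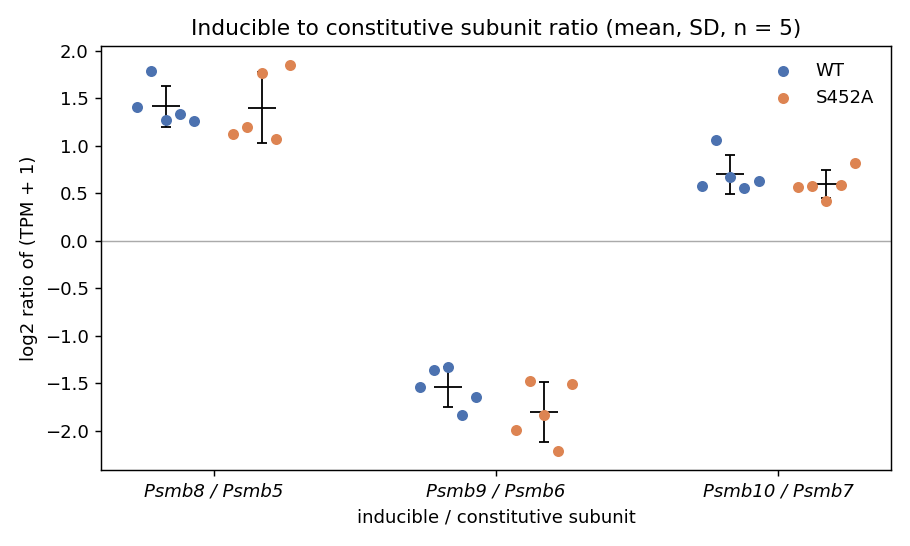
Log2 ratio of (TPM + 1) of each inducible subunit to the constitutive subunit it replaces, with 1 point per library and the mean with SD of each genotype (n = 5 WT, n = 5 S452A). Psmb8 to Psmb5 and Psmb10 to Psmb7 lie above 0 and Psmb9 to Psmb6 lies below 0 in all 10 libraries, and the genotypes overlap in each ratio.

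Nlrc5, which switches on class I genes, was at 22.5, 33.2, 28.2, 27.5 and 25.0 TPM in the WT mice and at 13.8, 23.4, 21.2, 27.7 and 33.2 TPM in S452A. S452A mouse 1 stood lowest and WT mouse 2 shared the highest level with S452A mouse 5. It was the most variable of the 10 genes, with a coefficient of variation of 22.7%, and its difference was -0.23 ± 0.20 (SE, interval -0.67 to 0.21, limma adjusted p = 0.952). Without S452A mouse 1 this difference was -0.06, and without S452A mouse 5 it was -0.36.

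Pairs of the 10 genes were mostly correlated positively between mice. Over the 45 pairs, Pearson's r of log2(TPM + 1) across the 10 libraries had a median of 0.530, and 42 of the 45 were above 0. Across all pairs of genes tested the median was 0.011, and 8.42% of pairs reached 0.530. That background was not matched to the 10 genes in abundance, sequence likeness or position. With the genotype means removed the median was 0.562, so the covariation was present within genotypes. These libraries share a fixed total of TPM, and genes are not independent replicates.

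Of the 45 pairs, 5 passed a Benjamini-Hochberg adjusted p of 0.05 for r (permutation of libraries) and 9 passed for Spearman's rho. H2-K1 with H2-D1 was the tightest, with r = 0.948 (permutation p = 0.00038, adjusted 0.0157) and rho = 0.879 (permutation p = 0.00162, adjusted 0.0331). Without the 2 libraries farthest from the median of H2-K1 (WT 1 and S452A 1), r was 0.914. Transcripts of H2-K1 and H2-D1 were 88.4% identical over 1515 aligned bases, and the part of shared reads in this r was not tested. Psmb8 with Psmb9 gave r = 0.911 (permutation p = 0.0007, adjusted 0.0157) and rho = 0.867 (permutation p = 0.00242, adjusted 0.0331), with r = 0.690 without S452A 1 and S452A 4.

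Tap1 was tied to the same immunoproteasome genes. With Psmb9 it gave r = 0.857 (permutation p = 0.00157, adjusted 0.0235) and rho = 0.867 (permutation p = 0.00191, adjusted 0.0331). With Psmb8 it gave r = 0.833 (permutation p = 0.00302, adjusted 0.0272) and rho = 0.842 (permutation p = 0.00368, adjusted 0.0331). They were at 0.563 and 0.513 without S452A 1 and S452A 4, so they rest in part on these 2 libraries. H2-K1 with B2m gave r = 0.814 (permutation p = 0.00229, adjusted 0.0258) and rho = 0.818 (permutation p = 0.00549, adjusted 0.0372), and r was 0.590 without WT 1 and S452A 1.

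Among the 4 neighbours on chromosome 17, Psmb9, Tap1, Psmb8 and Tap2, r was 0.704 to 0.911 (median 0.806). Among H2-K1, H2-D1 and B2m it was 0.676 to 0.948 (median 0.814). Between these sets the values were lower in part: Psmb8 with H2-D1 was at 0.146 and Psmb9 with H2-D1 at 0.266, whereas Tap1 with B2m was at 0.749. On leaving out 1 library, the first ranged from -0.102 (without S452A 1) to 0.430 (without WT 1) and the second from 0.027 (without S452A 1) to 0.507 (without S452A 4). Psmb10 was at 0.036 with H2-K1, -0.016 with H2-D1 and -0.059 with B2m, and at 0.649 with Psmb8 and 0.633 with Psmb9. The first 3 rest on S452A mouse 3, without which they were 0.369, 0.237 and 0.522. Over all 10 libraries, Tapbp had the lowest median r with the other 9 genes (0.223), and its highest was 0.673, with H2-D1. These values also depend on single libraries. On leaving out 1 library, r of Tapbp with H2-D1 ranged from 0.476 (without WT 1) to 0.874 (without S452A 1). With H2-K1 it ranged from 0.316 (without WT 1) to 0.793 (without S452A 1). With Nlrc5 it ranged from -0.079 (without WT 2) to 0.621 (without S452A 1), and with Psmb8 from -0.400 (without WT 2) to 0.281 (without WT 1). None of the differences between these correlations was tested.

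**Figure D4:**
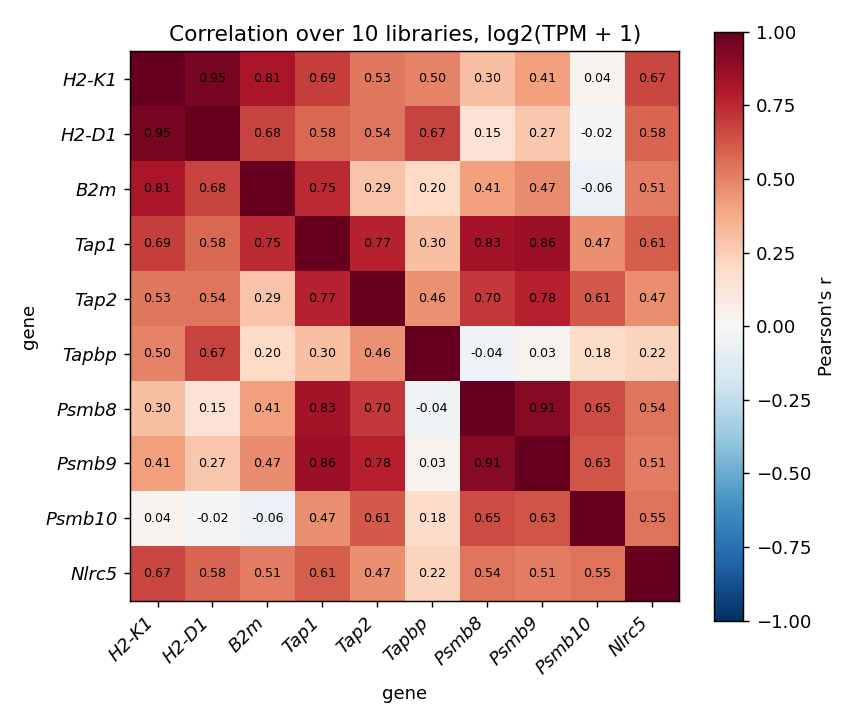
Pearson's r of log2(TPM + 1) over the 10 libraries for each of the 45 pairs, on a colour scale from -1 (blue) to 1 (red), with the genes ordered by their place in the route. The H2-K1, H2-D1 and B2m block and the Tap1, Tap2, Psmb8 and Psmb9 block are the darkest, and the Tapbp row is the palest, with a median of 0.223.

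The libraries themselves stood in an order. Mouse 2 of WT was highest for 5 of the 10 genes and mouse 5 of S452A for 3, while mouse 1 of S452A and mouse 4 of S452A were lowest for 3 genes each. Mouse 1 of S452A was among the lowest 3 libraries for 8 of the 10 genes. Without it, r of H2-K1 with Nlrc5 went from 0.666 to 0.338 and r of B2m with Nlrc5 from 0.508 to -0.035.

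Correlations were then computed with Ifng, with Irf1 and with the means of the T cell and macrophage marker lists, with p adjusted over a family of 50 relations. Irf1, a transcription factor that interferon induces and that binds class I promoters, passed with H2-D1, at r = 0.900 (permutation p = 4.0e-05, adjusted 0.002) and rho = 0.879 (permutation p = 0.00163, adjusted 0.041). Without WT 1 and WT 2 this r was 0.864. Irf1 was at 85.4, 206, 163, 171 and 132 TPM in the WT mice and 124, 155, 181, 175 and 138 TPM in S452A. No other gene of the 10 passed with Irf1. Its r was 0.753 with H2-K1, 0.454 with B2m, 0.425 with Nlrc5, 0.340 with Tap1 and 0.324 with Tap2. With Psmb8 it was -0.108, with Psmb9 -0.017 and with Psmb10 -0.127. On leaving out 1 library, the r with Psmb8 ranged from -0.313 (without WT 2) to 0.266 (without WT 1). The r of Irf1 with Tapbp, 0.792, was 0.126 without WT 1 and WT 2 and rests on them.

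**Figure D5:**
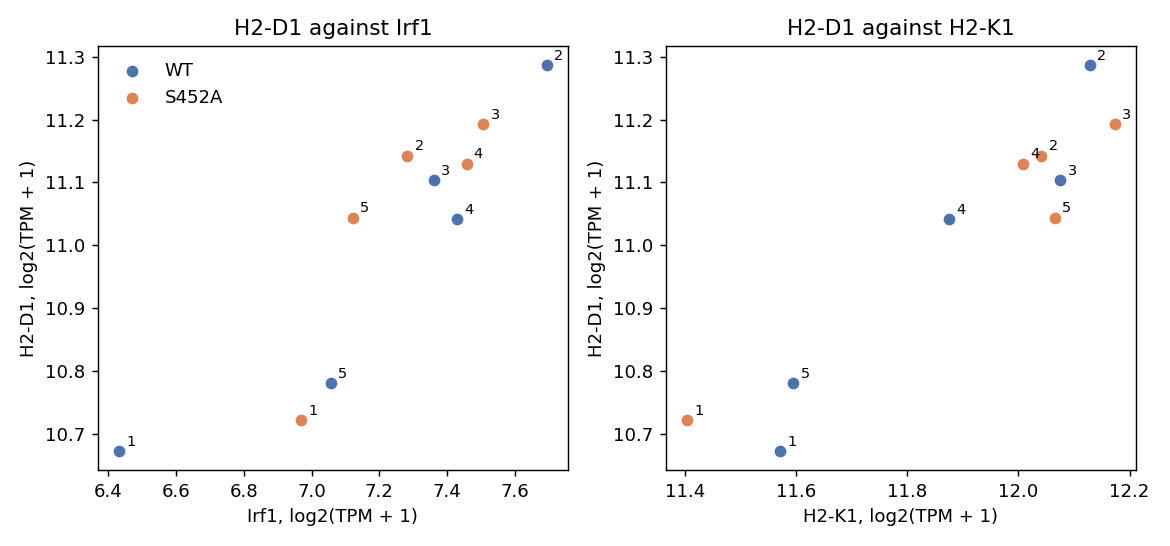
H2-D1 against Irf1 (left) and H2-D1 against H2-K1 (right), both axes in log2(TPM + 1), with 1 point per library coloured by genotype and numbered by mouse. H2-D1 is higher in libraries with more Irf1 (r = 0.900) and in those with more H2-K1 (r = 0.948), and the points of both genotypes are intermixed.

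Ifng itself was low, averaging 2.48 ± 1.50 TPM in WT against 2.74 ± 3.57 TPM in S452A (n = 5, SD), and none of its 10 relations passed. The median r with Ifng was 0.253, but it was -0.027 without S452A mouse 1 and 0.490 without WT mouse 2. Of the 20 relations with cell content, 0 passed, and 0 reached an unadjusted p under 0.05. The median r was 0.263 with the CD8 T cell marker mean and -0.276 with the macrophage and monocyte marker mean. Mouse 2 of WT, highest for 5 of the 10 class I genes, had the lowest T cell marker sum (20.6 TPM), and without it these medians were 0.575 and -0.483. Without S452A mouse 1 they were 0.051 and -0.154, and the macrophage value was -0.118 under median-ratio rescaling. The fibroblast and pericyte marker mean was lower in S452A (on the log2(TPM + 1) scale 3.79 ± 0.29 in WT against 3.29 ± 0.41 in S452A, n = 5, SD, exact permutation p = 0.0397, 2-sided, not adjusted over the marker lists). The 9 markers, none of them at 0 throughout, summed to 174 to 329 TPM in WT and to 77.2 to 232 TPM in S452A. Their part in the class I values was not tested.

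The genes most like each of the 10 were ranked by r over the 10 libraries among 6537 genes of mean at least 10 TPM. With so many genes and only 10 libraries, the highest r is large through selection alone. None of these r was tested. H2-T23, a nonclassical class I heavy chain, came up among the 20 highest for 4 genes, H2-K1, H2-D1, B2m and Tap1 (r 0.852 to 0.940). Transcripts of H2-T23 were 84.5% identical to H2-K1 over 1005 aligned bases and 84.4% identical to H2-D1 over 957. The split of reads shared by heavy chain genes is an estimate, and its part in these r was not tested. H2-T22, another, was first for Tap1 (r = 0.959). H2-M3, also a heavy chain gene, was second for B2m (r = 0.900) after the interferon-induced GTPase gene Gbp9 (r = 0.917). The windows of H2-T23 and H2-T22 did not hold the spaced promoter pair, and that of H2-M3 did. A link of the pair to these correlations was not tested. H2-K1 had Acvrl1 first (r = 0.964), and H2-D1 had Gtpbp2 (r = 0.970). Ly6e, an interferon-induced surface protein gene, came up for Tap1, Psmb8 and Psmb9 (r 0.848 to 0.915), as did Itgax for Tap1, Tap2 and Psmb9, Spn for Tap2, Psmb8 and Psmb9, Tifa for Tap1, Psmb9 and Nlrc5, and Naa25 for Tap2, Psmb8 and Psmb10. For the rest, the gene of highest r was Ppp1r16a for Tap2 (0.901), Aamp for Tapbp (0.919), Ppfia4 for Psmb8 (0.939), Il2ra for Psmb9 (0.923), Cd2ap for Psmb10 (0.920) and Sharpin for Nlrc5 (0.881).

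Around the 10 genes, 12 lists of pathway genes held 111 tested genes, of which 0 passed in either direction by limma and 3 had an unadjusted p under 0.05, against 4.74% of all genes tested. Of the other class I heavy chains, 13 of 16 were tested, with a median difference of 0.09. H2-Q10 had the smallest p of them (difference 0.30, limma adjusted p = 0.952). H2-T23 averaged 287 ± 49.8 TPM in WT against 293 ± 65.4 TPM in S452A, H2-Q4 averaged 288 ± 71.3 against 324 ± 103 TPM, and H2-Q7 averaged 414 ± 120 against 485 ± 181 TPM (n = 5, SD). S452A mouse 3 was highest for both H2-Q4 (475 TPM) and H2-Q7 (749 TPM), and H2-T3 was listed at 0 in all libraries.

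None of 6 chaperones of the loading route passed. Calr, calreticulin, averaged 628 ± 28.7 TPM in WT against 585 ± 79.0 TPM in S452A (n = 5, SD). Canx, calnexin, averaged 199 ± 12.2 against 196 ± 9.74 TPM, and Pdia3, the tapasin-bound disulfide isomerase, 231 ± 24.5 against 213 ± 9.36 TPM. Erap1, which trims peptides in the endoplasmic reticulum, averaged 19.4 ± 6.69 TPM in WT against 23.2 ± 5.85 TPM in S452A. Lnpep had the smallest p of the 9 peptidases (difference 0.40, limma adjusted p = 0.952). Psme1 and Psme2, the interferon-induced proteasome activator subunits, averaged 350 ± 21.6 and 102.5 ± 17.6 TPM in WT, against 350 ± 50.6 and 106 ± 7.42 TPM in S452A. Psme1 exceeded Psme2 in all 10 libraries, by a ratio of 2.56 to 4.28. Of the 4 proteasome activator genes, Psme4 had the smallest p (difference 0.11, limma adjusted p = 0.955). All 11 shared core subunits and 5 assembly factors were tested, with median differences of -0.06 and -0.13. The smallest p of these lists were those of Psmb3 (difference -0.18) and Psmg2 (-0.30), both at a limma adjusted p of 0.952.

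A list of 20 regulators held transcription factors of class I genes, and also Ezh2, Eed, Suz12 and Ciita, which are not such factors. Of the 20 differences, 15 were above 0, 5 were below 0 and 0 passed (median 0.15). Of all genes tested, 53.4% were below 0. The count of 15 was not tested and is not a count of activators alone. Rfxank, a subunit of the RFX complex, was the only pathway gene whose genotypes did not overlap, at 3.86 to 7.19 TPM in WT and 7.26 to 7.91 TPM in S452A. Its limma difference was 0.31 ± 0.16 (SE, adjusted p = 0.952), and 0.646% of all genes tested were separated in this way. The other RFX subunits, Rfx5 (5.58 ± 2.04 TPM in WT against 5.87 ± 2.44 TPM in S452A) and Rfxap (27.0 ± 7.76 against 29.5 ± 1.50 TPM), overlapped. Atf1, a CREB/ATF factor, had the smallest p (difference 0.30, limma adjusted p = 0.952). Irf8 averaged 99.9 ± 17.9 TPM in WT against 85.5 ± 18.7 TPM in S452A, and Ciita, the class II counterpart of Nlrc5, 2.37 ± 0.67 against 3.16 ± 1.41 TPM (n = 5, SD).

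Among interferon ligands, receptors and signalling genes, Ifnb1 was at 63.3, 119, 94.1, 96.6 and 142 TPM in the WT mice and 139, 94.9, 161, 276 and 155 TPM in S452A. Its difference was 0.64 ± 0.26 (SE, interval 0.07 to 1.21), it did not pass (limma adjusted p = 0.952), and the genotypes overlapped. Ifngr1 (80.8 ± 13.3 TPM in WT against 85.0 ± 6.52 TPM in S452A), Ifngr2 (68.1 ± 4.85 against 65.9 ± 11.4 TPM) and Jak2 (42.0 ± 8.02 against 52.9 ± 18.2 TPM) did not pass. Among 15 tested interferon gamma targets, Gbp5, a guanylate-binding protein gene, had the smallest p (difference 0.58, interval 0.02 to 1.14, limma adjusted p = 0.952). In the list of class I receptors and related receptors, Lilrb4a had the smallest p and averaged 980 ± 106 TPM in WT against 1196 ± 289 TPM in S452A (limma adjusted p = 0.952). Of 6 class II genes, H2-DMa had the smallest p (difference -0.07, limma adjusted p = 0.973).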

How the data were processed

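Bulk RNA was sequenced from cells sorted as CD8+ from MC38 tumours of 5 WT and 5 S452A mice, with directional libraries from 40 ng of RNA, per the labels' protocols. Per the submitters' processing notes, STAR 2.7.9a, RSEM 1.3.0 and GRCm38.p6 were used. The authors deposited 1 table of TPM values. The annotation release is not given in the sources used here, but 55094 of 55487 identifiers matched GENCODE M21, from which positions were taken. The design text writes the residue with other digits than the title and labels, which say S452A. TPM keeps no depth.

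Columns were matched to samples by description, and libraries are separate mice per the labels. The 13930 genes that reached 1 TPM in 5 or more libraries were fitted as log2(TPM + 1), which understates changes of low genes, in R 4.3.3 with limma 3.58.1 (eBayes with a trend, 2-sided, Benjamini-Hochberg over all genes, adjusted p under 0.05, genotype only). Ratios and sums were compared by exact permutation, and correlations by 100000 permutations. Alternatives were pseudocounts of 0.1 and 5, other filters, median-ratio rescaling, no trend, the mouse number as a block, removal of genotype means and leaving out each library. The fit and the correlations were tested on simulated data. Promoters came from RefSeq, and similar transcripts from blastn 2.17.0. Other steps ran in Python 3.11.15 (scipy 1.17.1, numpy 2.4.6, matplotlib 3.10.9, pandas 2.3.3).

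The genes and lists were chosen with earlier results of these data known. Named were the 10 genes, fixed genes of each pathway list with its gene of smallest unadjusted p, and genes most like each of the 10 (predicted and clone-named genes left out). Rfxank belongs to the fixed genes. H2-T3, H2-T22 and H2-M3 as a promoter match, and Gm36079 as the 1 gene that passed, were named after their values were seen. The samples' mouse numbers did not pair the genotypes. The relations with 1 further gene of the family of 50 are not reported here.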

Additional observations from a re-analysis of the deposited data

Results flagged for a closer look

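In 28 groups of 5 libraries, 4 held a library far from the other 4, where chance gives about 1 in 20. The groups are not independent, because they reuse the same libraries and H2-K1 is part of the heavy chain sum. The count therefore cannot be read as more than chance gives. S452A mouse 1 stood low for H2-K1, at 2709.9 TPM against 4116.73 TPM in the nearest S452A library. It also stood low for the summed class I heavy chains, at 12.40 on the log2 scale against 12.97. WT mouse 2 stood high for the ratio of Psmb8 to Psmb5, at 1.79 on the log2 scale against 1.41 in the nearest WT library. It also stood high for the ratio of Psmb10 to Psmb7, at 1.06 against 0.67.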

How the results depend on the processing

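For each of the 10 genes, 17 alternatives were computed, and 0 of the 10 passed under any of them (smallest adjusted p 0.761). The direction held throughout for 7 genes. It turned on leaving out 1 library for H2-D1 (range -0.0067 to 0.150), Tap1 (-0.170 to 0.0279) and Tapbp (-0.0314 to 0.161), and stayed on 1 side of 0 for H2-K1 (0.02 to 0.22), B2m (0.02 to 0.17), Tap2 (-0.151 to -0.005), Psmb8 (-0.26 to -0.11), Psmb9 (-0.24 to -0.10), Psmb10 (-0.26 to -0.09) and Nlrc5 (-0.36 to -0.06). The log2 ratio of Psmb8 to Psmb5 ranged from -0.124 to 0.0813. The median r with the CD8 T cell marker mean ranged from 0.051 to 0.575 on leaving out 1 library, that with Irf1 from 0.256 to 0.481, that with Ifng from -0.027 to 0.490 and that with the macrophage marker mean from -0.483 to -0.154. With a filter at a mean of 5 TPM, 0 of 10087 genes passed by limma (455 at an unadjusted p under 0.05), because Gm36079, the 1 gene called otherwise, was not among them.

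Samples with the same mouse number did not deviate together (correlations -0.15 to 0.07, and 0 libraries correlated best with their own number). With the mouse number as a replicate block, 1 gene passed and 0 of the 10 class I genes did, with adjusted p up to 0.988 and 613 genes at an unadjusted p under 0.05. Under the block the ratios gave sign-flip exact p of 0.938, 0.188 and 0.438, and the heavy chain sum 0.500. With so few pairs of mice, this sign-flip test cannot give a p under 0.05 whatever the values. Its outcome therefore does not bear on whether the ratios or the sum differ between genotypes. The depth is unknown, so no limit from counting can be given.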
